A study of Mus musculus with 6 samples.

Results

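Transcripts of 53 developmental transcription factor genes were followed in adipocytes isolated from inguinal subcutaneous white adipose tissue (scWAT) of male mice at postnatal day 7. The genes belong to the SOX, forkhead, T-box, Iroquois, RUNX, SNAI, TWIST and ZEB families. They were taken by gene symbol from a table of 37384 genes, apart from *Sox10*, *Foxo1* and *Foxm1*, and needed a count of 10 or more in at least 3 libraries. Of 89 symbols that matched, 53 met this minimum and 36 did not. The minimum reads the counts of the compared libraries, but not their genotype. RNA was compared between *Lats1*f/f*Lats2*f/f mice (L1L2-FF, 3 libraries), which carry floxed *Lats1* and *Lats2* alleles, and mice with the same floxed alleles and a constitutive *Adipoq*-Cre transgene (L1L2-AKO, 3 libraries, below the AKO-labelled libraries). Each library held the floated adipocytes of 4 pooled mice. Cre was driven by the adiponectin promoter, and recombination in the other cells of the floated fraction was not measured here.

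LATS1 and LATS2 are the kinases of the Hippo pathway that phosphorylate YAP and TAZ and hold them out of the nucleus. In the nucleus YAP and TAZ act through TEAD proteins on DNA. The families followed here set cell identity: SOX proteins bind DNA with an HMG box, FOX proteins with a forkhead domain, TBX proteins with a T-box, IRX proteins with a homeodomain and RUNX proteins with a Runt domain, while SNAI, TWIST and ZEB proteins act on E-boxes in epithelial-mesenchymal transition. Many of them mark a cell type other than the adipocyte, such as the SoxF proteins in endothelium, RUNX1 in blood cells and T-bet in lymphocytes, so in a floated fraction their transcripts can come from several cell types. In bulk RNA fewer cells of a type and less RNA per cell cannot be told apart.

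The libraries held between 30548473 and 32107917 counts each. *Lats1* fell by 1.04 on the log2 scale in the AKO-labelled libraries (standard error, SE, 0.118, adjusted p = 0.00131 by the quasi-likelihood test of edgeR, adjusted after Benjamini and Hochberg). *Lats2* went against the label and rose by 0.64 on the log2 scale (SE 0.156, adjusted p = 0.0278 by the same edgeR test), so each direction given here is that of the AKO-labelled libraries. A count for a whole gene also includes reads outside any deleted exon. All 12 adipocyte markers examined were counted, and their summed level was 29430 to 36140 CPM (counts relative to the TMM-scaled library size) in L1L2-FF and 26360 to 34990 CPM in the AKO-labelled libraries. Of these markers *Adipoq*, *Pparg*, *Retn* and *Cfd* fell and the other 8 did not pass the test.

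Among the 53 genes, 7 passed an adjusted p of 0.05, 3 of them higher (*Runx1*, *Foxp1* and *Tbx15*) and 4 lower (*Sox2*, *Tbx21*, *Irx2* and *Sox6*) in the AKO-labelled libraries. These are 13.2% of the members, beside 16.5% of the 15674 genes tested. By direction, 5.66% of the members were called higher against 9.28% of all genes, and 7.55% lower against 7.18%. In 10 members (18.9%) every library labelled L1L2-AKO lay above every L1L2-FF library, as in 18.0% of all genes, and in 9 (17.0%) below, as in 18.4%. The shares called lower or lying below include *Sox2*, whose direction the count minimum had fixed. The share lying above includes *Foxc2*, *Foxp2* and *Foxp3*, and the share lying below includes *Foxo6*. The libraries of their lower genotype alone would not have met the minimum. The shares of the members lay near those of all genes. The median log2 fold change was 0.02 over the members and -0.02 over all genes, and the median size of the change without its sign was 0.40 and 0.29. The members were also less abundant, with a median of 9.35 CPM against 17.6 CPM, and 15 of them lay under 1 CPM on average.

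**Figure D1:**
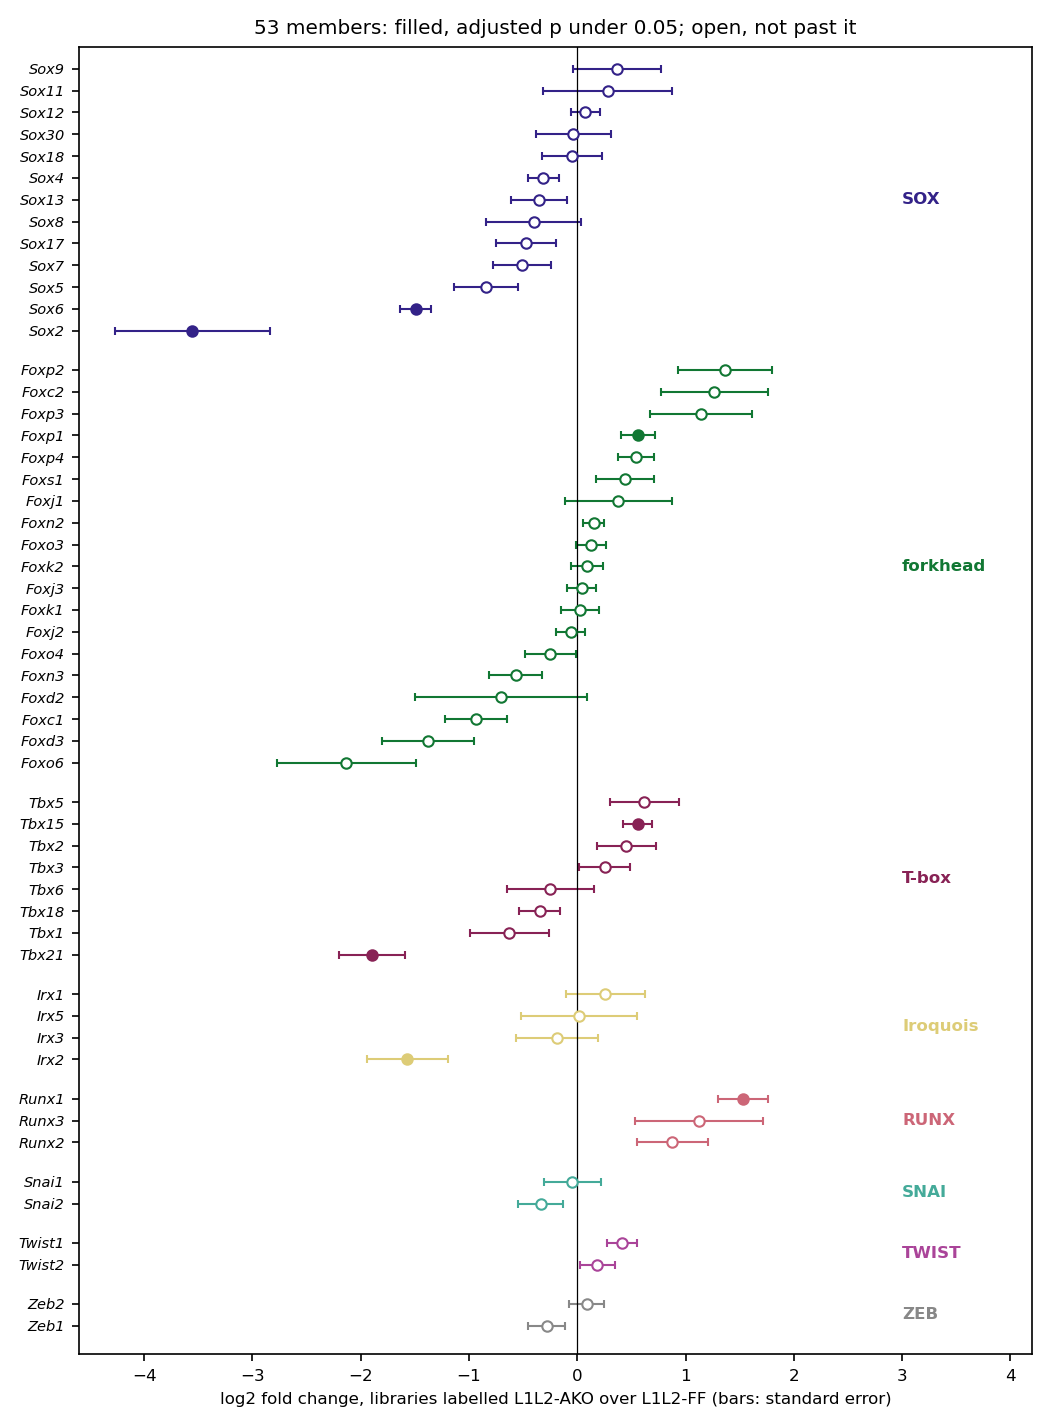
Log2 fold change of the 53 members (libraries labelled L1L2-AKO over L1L2-FF, 3 libraries each), grouped by family, with the standard error of edgeR's fit as bars; filled points passed an adjusted p of 0.05. All 3 RUNX genes and all 4 FOXP genes lie to the right of 0, while *Sox2* at -3.55 is the farthest to the left. The count minimum had fixed the direction of *Sox2*. It leaned towards the higher direction for *Foxp2*, *Foxp3* and *Runx3*, which the L1L2-FF libraries alone would not have brought past it.

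Levels between genes were compared per length, as CPM per kilobase of annotated exon (RPKM). The most abundant member was *Sox18*, an endothelial factor, with 30.5 ± 3.14 RPKM in L1L2-FF and 29.6 ± 11.4 RPKM in the AKO-labelled libraries (SD, n = 3 each). *Zeb2*, a zinc finger repressor of E-cadherin that is also found in macrophages, followed with 20.7 ± 2.21 and 22.0 ± 3.59 RPKM. *Twist1*, a bHLH factor of mesenchyme, had 16.6 ± 1.63 and 22.1 ± 3.05 RPKM. *Sox7* lay at 17.4 ± 3.07 and 12.2 ± 4.31 RPKM. In L1L2-FF the ranges of mean ± SD of *Zeb2* and *Sox7* overlapped, and *Sox7* and *Twist1* lay within an SD of each other. In the AKO-labelled libraries *Zeb2* and *Twist1* were nearly equal. Over both genotypes together, the highest members of the other families were *Foxk2* with 11.1 ± 2.03 RPKM, *Snai2* with 7.06 ± 0.680 RPKM, *Tbx15* with 6.50 ± 0.135 RPKM, *Irx3* with 0.885 ± 0.348 RPKM and *Runx1* with 0.400 ± 0.0982 RPKM in L1L2-FF (SD, n = 3). In L1L2-FF alone *Foxo4*, with 12.1 ± 3.89 RPKM, lay above *Foxk2*, within its SD. *Foxk2*, which encodes a regulator of glycolysis and autophagy, had 58.1, 48.0 and 69.4 CPM against 68.7, 57.9 and 60.3 CPM. Apart from *Tbx15* and *Runx1*, none of these family leaders passed the test between the genotypes.

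**Figure D2:**
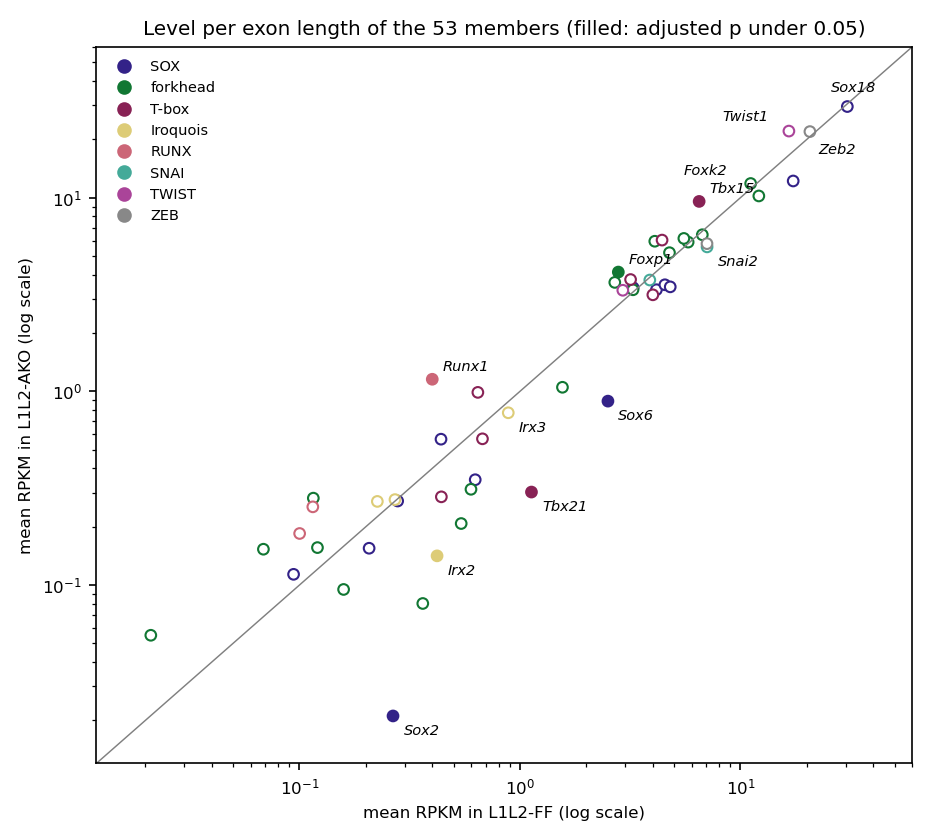
Mean RPKM of each member in L1L2-FF (x axis) and in the libraries labelled L1L2-AKO (y axis), both on log scales with the line of equality; filled points passed an adjusted p of 0.05. Most of the abundant genes lie along the line, *Runx1* (0.400 to 1.16 RPKM) lies above it, and *Sox6* (2.51 to 0.891 RPKM) and *Tbx21* (1.13 to 0.302 RPKM) lie below it.

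RUNX proteins pair with the shared subunit CBFB and direct lineages: RUNX1 in blood cells, RUNX2 in bone and RUNX3 in lymphocytes and sensory neurons. *Runx1* (chromosome 16, 92601466 to 92826149, minus strand, mm10) had 3.61, 5.97 and 4.87 CPM in L1L2-FF replicates 1 to 3 and 11.2, 16.1 and 14.4 CPM in the AKO-labelled libraries. Its lowest value in the latter was above the highest in L1L2-FF. *Runx1* rose 2.88-fold, a log2 fold change of 1.53 (SE 0.231, adjusted p = 0.00419, edgeR, Benjamini-Hochberg), and passed the test under all 14 alternative settings. Counts of *Runx2* were 27, 33 and 24 in L1L2-FF and 42, 67 and 43 in the AKO-labelled libraries, with no overlap (log2 fold change 0.88, below the threshold, adjusted p = 0.107, edgeR). Counts of *Runx3* were 18, 31 and 6 against 21, 46 and 49, which overlapped (log2 fold change 1.12, adjusted p = 0.244, edgeR). All 3 paralogs had a positive estimate and only *Runx1* passed the test. Of the *Runx2* exons, 5.87% lie opposite an antisense transcript, and as the strand setting of the counts is not given in the sources used here, those reads cannot be told apart. *Cbfb* did not pass, with 60.7 ± 2.00 and 74.6 ± 5.28 CPM (SD, n = 3 each, adjusted p = 0.0907, edgeR).

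Macrophage genes moved with *Runx1*. Of 12 macrophage markers 11 rose, with a median log2 fold change of 1.48, led by *Fcgr1* (2.34) and *Mrc1* (1.84). Their summed level was 285 to 550.5 CPM in L1L2-FF and 1001 to 1116 CPM in the AKO-labelled libraries, a 2.58-fold difference of the means, and none of the 12 was at 0. The part of macrophage RNA in the *Runx1* rise was not tested.

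**Figure D3:**
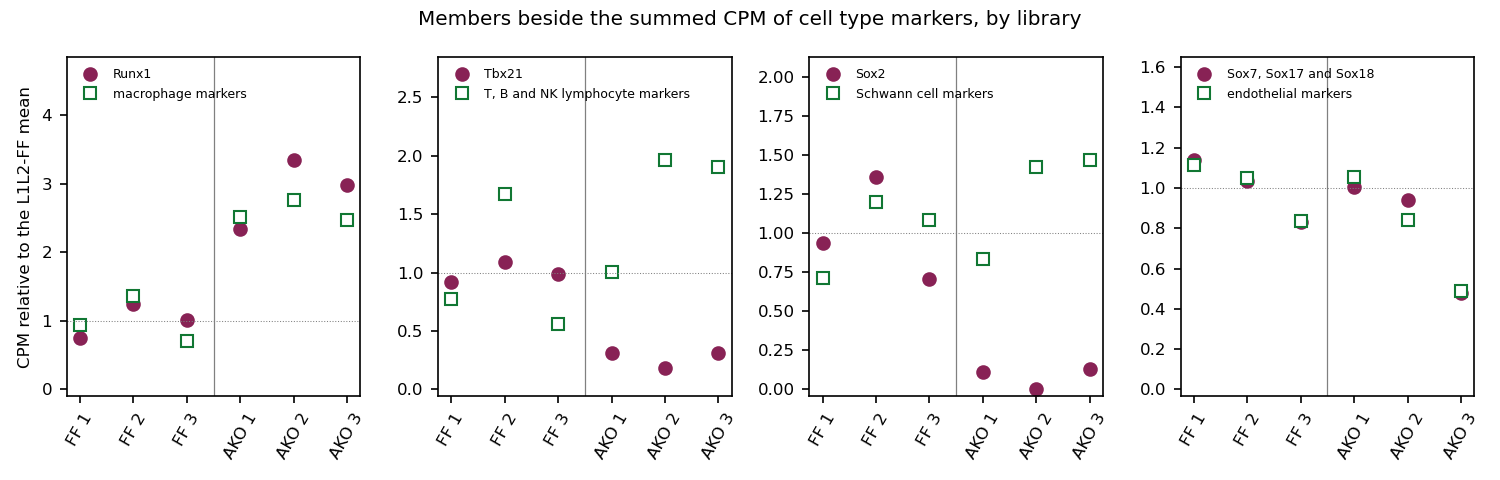
CPM of *Runx1*, *Tbx21*, *Sox2* and the sum of *Sox7*, *Sox17* and *Sox18* in each library, divided by its L1L2-FF mean (circles), beside the summed CPM of the markers of macrophages, lymphocytes, Schwann cells and endothelial cells on the same scale (squares). *Runx1* and the macrophage markers both lie above 2 in all 3 libraries labelled L1L2-AKO, *Tbx21* lies below 0.4 where the lymphocyte markers lie at 1 or above, and the SoxF genes follow the endothelial markers down to below 0.5 in L1L2-AKO replicate 3.

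Of the 13 SOX members, 10 had a negative estimate, beside 8162 of the 15674 genes tested. Called lower were 2 of the 13 (15.4%), beside 7.18% of all genes, and 4 (30.8%) were lower without overlap, beside 18.4%. *Sox2* is in each of these SOX counts, although the count minimum had fixed its direction. SOX5, SOX6 and SOX13 form the SoxD group, which lacks an activation domain of its own, and SOX5 and SOX6 act with SOX9 in cartilage. *Sox6* (chromosome 7, 115470872 to 116038796, minus strand) had 37.2, 41.8 and 32.5 CPM in L1L2-FF and 12.1, 12.7 and 14.8 CPM in the AKO-labelled libraries. The replicates of each genotype lay close together and far from the other genotype. *Sox6* fell by 1.49 on the log2 scale, to a 2.82-fold lower level (SE 0.144, adjusted p = 7.3e-04, edgeR, Benjamini-Hochberg), the smallest adjusted p of the 53 members, and passed the test under all 14 alternative settings. *Sox5* had 11.2, 9.68 and 6.12 CPM against 3.41, 6.06 and 5.62 CPM. The values did not overlap, but its log2 fold change of -0.84 missed the threshold (adjusted p = 0.0922, edgeR). *Sox13* had a log2 fold change of -0.35 with overlapping values (adjusted p = 0.411, edgeR).

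SOX2 is a factor of pluripotent and neural stem cells that is also present in immature Schwann cells. *Sox2* (chromosome 3, 34650405 to 34652461, plus strand, within the span of *Sox2ot* and sharing no exon with it) had counts of 16, 24 and 12 in L1L2-FF and 2, 0 and 2 in the AKO-labelled libraries. It was the only member that reached 10 counts in libraries of 1 genotype alone, so passing the minimum already required it to be higher there. The ratio of the summed counts, 52 to 4, was 12.8 after scaling for library size (95% exact Clopper-Pearson interval 4.71 to 48.8, which covers counting error only). Its edgeR call (adjusted p = 0.0134) is given as a description, since the minimum had fixed its direction. Of 9 Schwann cell markers, *Sostdc1*, *S100b*, *Mal* and *Mbp* fell, with log2 fold changes of -2.35, -2.10, -1.88 and -1.20, and *Pmp22* rose by 1.02. The median of the list was -1.73, none of the 9 was at 0, and its sums, 606 to 1017 CPM in L1L2-FF and 706 to 1246 CPM in the AKO-labelled libraries, overlapped between the genotypes. *Pmp22* made up 446 ± 86.6 CPM of the sum in L1L2-FF and 902 ± 264 CPM in the AKO-labelled libraries (SD, n = 3 each). The part of Schwann cell RNA in the fall of *Sox2* was not tested.

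SOX7, SOX17 and SOX18 are the SoxF factors of endothelial cells. *Sox7* had 65.8, 59.8 and 46.1 CPM in L1L2-FF and 50.4, 46.4 and 24.0 CPM in the AKO-labelled libraries. *Sox17* had 26.4, 27.2 and 15.2 CPM against 18.9, 19.4 and 11.3 CPM. *Sox18* had 55.4, 46.8 and 46.3 CPM against 60.8, 56.2 and 26.7 CPM. In all 3 genes the genotypes overlapped and L1L2-AKO replicate 3 was the lowest library. None passed the test, with log2 fold changes of -0.51, -0.47 and -0.05 (adjusted p = 0.248, 0.300 and 0.934, edgeR). Without L1L2-AKO replicate 3 the estimate of *Sox18* turned to 0.25. The summed endothelial markers were likewise lowest in that library, at 1359 CPM against 2323 to 3104 CPM in L1L2-FF, and 0 of the 12 passed edgeR's test, 2 had an unadjusted p under 0.05, DESeq2 called 1 and limma-voom 0 (median log2 fold change -0.45, none at 0). Part of the *Sox17* signal is uncertain, since 16.8% of its exon bases lie opposite an antisense gene.

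The other SOX genes did not pass. *Sox4* had 22.2, 20.9 and 16.7 CPM against 16.4, 15.7 and 16.1 CPM, without overlap (log2 fold change -0.31, adjusted p = 0.182, edgeR), and 54.6% of its exon bases lie opposite the antisense gene *Gm26735*. *Sox12* was close to equal at 14.5 ± 0.576 and 15.3 ± 1.35 CPM (SD, n = 3 each). *Sox9*, the master factor of cartilage, stayed low at 1.81 ± 0.916 and 2.34 ± 0.697 CPM (SD, n = 3 each). *Sox8*, *Sox11* and *Sox30* lay under 1 CPM in both genotypes on average. Of the exon bases of *Sox5* and *Sox8*, 9.25% and 10.6% are shared with another gene.

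T-box factors pattern mesoderm and, in the case of T-bet (TBX21), direct T helper 1 and natural killer cells. *Tbx21* (chromosome 11, 97098071 to 97115331, minus strand) had counts of 81, 99 and 86 in L1L2-FF and 29, 16 and 25 in the AKO-labelled libraries. The groups were clearly separated. *Tbx21* fell by 1.90 on the log2 scale, to a 3.72-fold lower level (SE 0.305, adjusted p = 0.00542, edgeR, Benjamini-Hochberg), and passed under all 14 alternative settings. Lymphocyte markers were examined beside it. Of the 11 T, B and natural killer cell markers tested 0 passed edgeR's test, 2 had an unadjusted p under 0.05, DESeq2 called 1 and limma-voom 0. Their median log2 fold change was 0.79, and with *Ncr1* the sum of the 12 was 9.96 to 29.9 CPM in L1L2-FF and 18.0 to 35.1 CPM in the AKO-labelled libraries. *Cd4* had a log2 fold change of 1.25 (adjusted p = 0.0732, edgeR) and *Nkg7*, a granule gene of cytotoxic cells, of 0.44 (adjusted p = 0.520, edgeR). *Ncr1*, a receptor of natural killer cells, was counted 0, 11 and 0 times in L1L2-FF and 4, 0 and 2 times in the AKO-labelled libraries. *Nkg7* also had few counts, 20, 22 and 10 against 22, 21 and 26. The part of lymphocyte RNA in the fall of *Tbx21* was not tested.

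TBX15 is needed for skeletal growth, and its expression differs between fat depots. *Tbx15* (chromosome 3, 99240381 to 99354259, plus strand) had 24.2, 23.9 and 24.9 CPM in L1L2-FF and 31.1, 34.8 and 41.6 CPM in the AKO-labelled libraries. The L1L2-FF libraries were nearly equal and all lay below the others. *Tbx15* rose 1.47-fold (log2 fold change 0.56, SE 0.132, adjusted p = 0.0255, edgeR, Benjamini-Hochberg), and its call was lost without L1L2-FF replicate 1, L1L2-AKO replicate 2 or L1L2-AKO replicate 3, with an adjusted p of up to 0.0886. The linked limb genes *Tbx3* and *Tbx5*, 148 kb apart, missed the threshold at log2 fold changes of 0.25 and 0.62. *Tbx2* had 18.8, 16.8 and 12.4 CPM against 26.7, 25.8 and 13.3 CPM, which overlapped through L1L2-AKO replicate 3. *Tbx18*, a factor of mural cells and the epicardium, had a log2 fold change of -0.35 (adjusted p = 0.266, edgeR), and 20.6% of its exon bases lie opposite an antisense gene. *Tbx1*, used as a marker of beige adipocytes, had counts of 39, 62 and 46 against 22, 30 and 40, which overlapped (log2 fold change -0.63, adjusted p = 0.294, edgeR). *Tbx6* had a log2 fold change of -0.25.

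The 4 Iroquois members lie on chromosomes 13 and 8, and neighbours in a cluster had different estimates. *Irx2* (chromosome 13, 72628820 to 72634198, plus strand) had counts of 56, 46 and 29 in L1L2-FF and 14, 13 and 16 in the AKO-labelled libraries. All 3 of the latter were lower than every L1L2-FF library. *Irx2* fell by 1.57 on the log2 scale (2.97-fold, SE 0.376, adjusted p = 0.0264, edgeR, Benjamini-Hochberg), but leaving out L1L2-FF replicate 1 or any 1 of the AKO-labelled libraries ended its call (adjusted p of up to 0.108), as did replicate number as a block (adjusted p = 0.0536). *Irx1*, 665 kb away, had counts of 22, 19 and 15 against 19, 28 and 19 and a log2 fold change of 0.26 (adjusted p = 0.688, edgeR). The difference between the changes of these neighbours was not tested. *Irx3* and *Irx5*, which have been linked to adipocyte browning, lay 556 kb apart on chromosome 8 with log2 fold changes of -0.19 and 0.02, and neither passed. Counts of *Irx3* were 111, 57 and 63 in L1L2-FF and 87, 78 and 38 in the AKO-labelled libraries. *Irx4* and *Irx6* had 0 counts in all 6 libraries, which allows up to 3 counts per library.

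**Figure D4:**
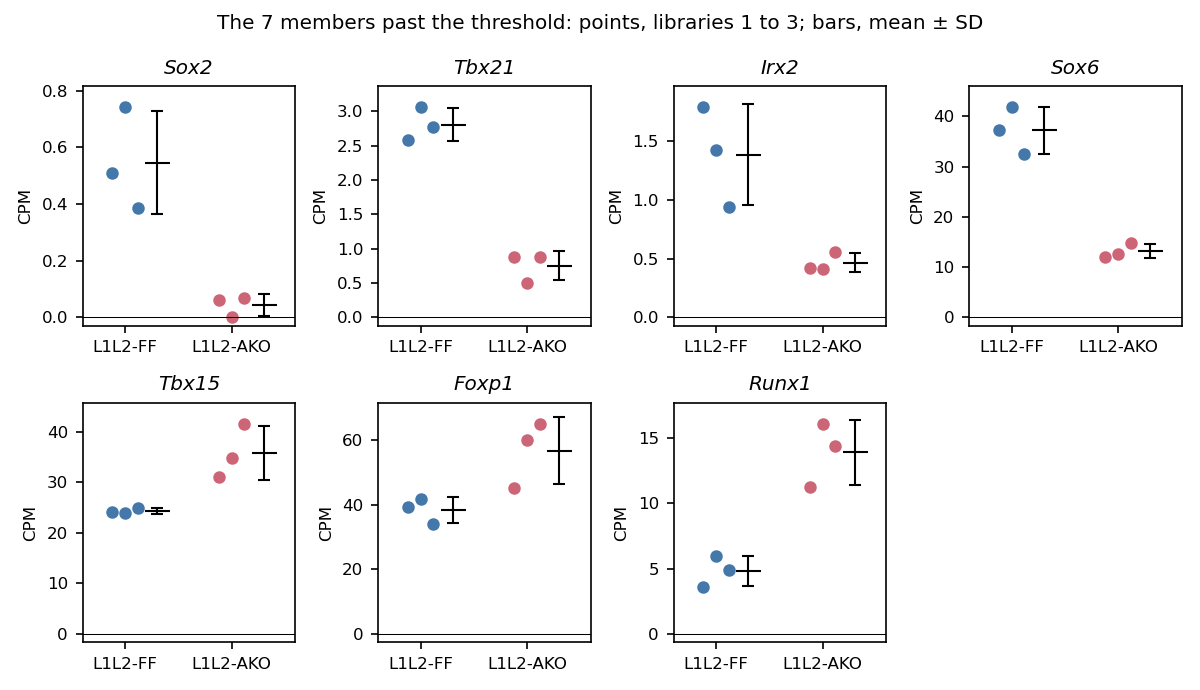
CPM of the 7 members that passed an adjusted p of 0.05, ordered from the lowest to the highest log2 fold change; points are libraries 1 to 3 of a genotype and bars the mean ± SD. In every panel the 3 libraries labelled L1L2-AKO lie apart from the 3 L1L2-FF libraries, with *Sox2* at 0 to 0.0698 CPM in the former. For *Sox2* the count minimum had fixed this direction. The genes shown were chosen by the test on these same libraries, which favours separation of the genotypes.

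Of the 19 forkhead genes 12 had a positive and 7 a negative estimate, beside 7512 and 8162 of the 15674 genes tested. In this family 1 passed the test (5.26%), beside 16.5% of all genes. Higher without overlap were 6 (31.6%), beside 18.0% of all genes, and lower without overlap 3 (15.8%), beside 18.4%. Among the 6 are *Foxc2*, *Foxp2* and *Foxp3*, which the L1L2-FF libraries alone would not have brought past the count minimum. Among the 3 is *Foxo6*, which the AKO-labelled libraries alone would not have brought past it. For these genes the minimum leaned towards the direction seen. FOXP proteins are repressors that dimerize with each other, and FOXP3 marks regulatory T cells. *Foxp1* (chromosome 6, 98925338 to 99522721, minus strand) had 39.3, 42.0 and 34.0 CPM in L1L2-FF and 45.1, 60.1 and 65.2 CPM in the AKO-labelled libraries. Its lowest library in the latter lay just above the highest in L1L2-FF. *Foxp1* rose 1.48-fold (log2 fold change 0.56, SE 0.159, adjusted p = 0.0467, edgeR, Benjamini-Hochberg), and this call was the weakest of the 7: leaving out L1L2-FF replicate 1 or 3 or L1L2-AKO replicate 2 or 3 ended it, as did 4 of the 8 other settings, with an adjusted p of up to 0.152. The other 3 FOXP genes were higher without overlap, as were 18.0% of all genes, and missed the threshold. Of these, *Foxp2* and *Foxp3* each reached 10 counts in only 1 L1L2-FF library. *Foxp4* had counts of 679, 575 and 651 against 804, 879 and 1029 (log2 fold change 0.54, adjusted p = 0.0629, edgeR). *Foxp2* had counts of 8, 17 and 8 against 25, 36 and 23 (log2 fold change 1.36, adjusted p = 0.0671, edgeR). *Foxp3* had counts of 7, 17 and 6 against 21, 21 and 23 (log2 fold change 1.14, adjusted p = 0.143, edgeR), with 31.5% of its exon bases shared with other genes. Of 5 regulatory T cell genes, *Foxp3* among them, 0 passed edgeR's, DESeq2's or limma-voom's test and 2 had an unadjusted p under 0.05, with a median log2 fold change of 0.62.

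FOXO proteins carry the signal of low insulin. *Foxo3* and *Foxo4* did not pass, at 36.1 ± 5.70 and 39.4 ± 1.77 CPM and at 42.2 ± 13.6 and 35.6 ± 5.72 CPM (SD, n = 3 each). *Foxo6* had counts of 26, 12 and 51 in L1L2-FF and 11, 5 and 4 in the AKO-labelled libraries, with no overlap in CPM (log2 fold change -2.14, adjusted p = 0.0573, edgeR), and L1L2-FF replicate 3 held more of its counts than any other library. Among 14 FOXO target genes tested, *Bnip3*, *Cat*, *Fbxo32* and *Ccng2* fell, with log2 fold changes of -1.35, -1.07, -0.90 and -0.60, and *Sesn1* rose by 0.54. The median of that list was -0.11.

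FOXC1 and FOXC2 are factors of mesenchyme and vessels, and FOXC2 has been tied to a brown-like state of adipocytes. Their estimates had opposite signs. *Foxc1* had 3.99, 3.43 and 3.09 CPM against 1.90, 2.32 and 1.26 CPM (log2 fold change -0.94, adjusted p = 0.0586, edgeR). *Foxc2* had counts of 11, 14 and 5 against 16, 33 and 22 (log2 fold change 1.26, adjusted p = 0.124, edgeR). Neither passed, though neither overlapped between the genotypes. Of 10 thermogenic genes, *Cox8b* and *Cidea* fell, by 1.56 and 1.27 on the log2 scale, and the others did not pass. Of all genes tested, 16.5% passed. The estimates of that list ran from -1.56 to 0.62, with a median of -0.57. *Foxd3*, a neural crest factor, had counts of 31, 63 and 26 against 17, 13 and 15 (log2 fold change -1.38, adjusted p = 0.0616, edgeR). *Foxs1*, a gene of mural cells, had 3.53 ± 0.532 and 4.79 ± 1.40 CPM (SD, n = 3 each). The broadly expressed *Foxk1*, *Foxk2*, *Foxj2*, *Foxj3*, *Foxn2* and *Foxn3* had log2 fold changes between -0.57 and 0.15, and none passed. *Foxj1*, the factor of motile cilia, was counted 12, 10 and 8 times against 22, 9 and 8, just inside the count minimum. *Foxd2* was counted 14, 15 and 10 times against 15, 9 and 0.

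SNAI1, SNAI2, ZEB1 and ZEB2 repress E-cadherin, and TWIST1 and TWIST2 restrain brown and muscle programs in mesenchymal cells. None of these 6 genes passed edgeR's test, nor DESeq2's or limma-voom's, and 1 had an unadjusted p under 0.05. Of all 15674 genes tested, 16.5% passed edgeR's test and 4828 had an unadjusted p under 0.05. Whether the 6 differed from that share was not tested. *Twist1* had 29.9, 24.6 and 26.5 CPM in L1L2-FF and 31.9, 34.4 and 41.5 CPM in the AKO-labelled libraries, without overlap (log2 fold change 0.41, SE 0.139, adjusted p = 0.0805, edgeR). *Twist2* had a log2 fold change of 0.18, and 46.5% of its exon bases lie opposite an antisense gene. *Snai2* had 14.8, 12.7 and 15.3 CPM against 13.1, 12.6 and 8.10 CPM, and *Snai1* had 6.29 ± 2.01 and 6.09 ± 1.01 CPM (SD, n = 3 each). *Zeb2* had 415, 455 and 367 CPM against 384, 411 and 519 CPM, and *Zeb1* had 72.2, 81.4 and 63.6 CPM against 69.7, 63.3 and 45.4 CPM. The values of all 4 SNAI and ZEB genes overlapped between the genotypes. Of the epithelial genes that they repress, 4 of 13 were abundant enough to be tested and 0 passed edgeR's test, 1 had an unadjusted p under 0.05, DESeq2 called 1 and limma-voom 0. *Ovol2* was at 0 in all libraries, and *Cdh1*, which encodes E-cadherin, had 2.74 ± 1.81 and 0.809 ± 0.498 CPM (SD, n = 3 each, adjusted p = 0.0977). Of 8 mesenchymal genes, *Fn1* rose by 0.78 on the log2 scale and the other 7 did not pass.

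Further genes that work with or below the members were examined as lists. Over 65 tested genes of 8 such lists, 16 (24.6%) passed edgeR's test, 9 higher and 7 lower, beside 16.5% of all genes tested. Among 15 co-factors tested, the Groucho family genes *Tle6*, *Tle2* and *Tle1*, which encode co-repressors or relatives of co-repressors recruited by RUNX and other factors, rose with log2 fold changes of 2.47, 1.12 and 0.83, and the other 12 did not pass. In the RUNX2 and bone list, 5 of 12 genes were tested: *Mmp13*, *Spp1* and *Alpl* rose by 3.01, 2.59 and 2.46, *Sp7* fell by 3.08 on the log2 scale, and *Ibsp* was at 0. *Sp7*, which encodes osterix, had counts of 15, 22 and 17 against 4, 2 and 0, and *Mmp13*, a collagenase, had 2, 4 and 9 against 34, 42 and 45. Each met the count filter through the libraries of 1 genotype alone, which fixed its direction. Both are among the 16 genes above, and their calls are given as a description. *Spp1*, which encodes osteopontin and is also made by macrophages, had counts of 14, 15 and 18 against 80, 94 and 105. Of 7 cartilage genes tested 0 passed with edgeR, DESeq2 or limma-voom and 0 had an unadjusted p under 0.05, with a median log2 fold change of -0.49. Of 6 tendon genes only 2 were abundant enough to be tested. *Fmod*, a collagen-binding proteoglycan, rose by 5.89 on the log2 scale. Its counts were 195, 148 and 127 in L1L2-FF and, unevenly, 2397, 11710 and 12694 in the AKO-labelled libraries. *Thbs4* did not pass (log2 fold change -0.54, adjusted p = 0.242, edgeR). Of other cell types, 10 mural cell markers had *Higd1b*, *Rgs5* and *Cspg4* lower and *Notch3* higher, 12 progenitor markers had *Pi16*, *Clec3b* and *Cd55* lower, and *Trp63* fell among 4 tested epithelial markers. Of 6 tested skeletal muscle markers 0 passed edgeR's test, 2 had an unadjusted p under 0.05, DESeq2 called 2 and limma-voom 1.

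Upstream sequences were read because YAP and TAZ reach DNA through TEAD proteins. RefSeq windows of GRCm38.p6 were at hand for 33 of the 53 members and for 6 of the 7 that passed, several with more than 1 start site, and the 250 bases before each start were searched on both strands. The TEAD letters GGAATG or CATTCC occurred in 9 of 47 windows of members (19.1%) and in 12.6% of all 32851 windows, and among the genes that passed in *Runx1*, *Sox6* and *Foxp1*. The E-box letters CAGGTG or CACCTG of SNAI and ZEB proteins occurred in 7 windows of members (14.9%) and in 17.2% of all. Among the genes that passed they occurred in *Runx1*, *Sox6*, *Foxp1* and *Tbx21*. The RUNX letters TGTGGT or ACCACA occurred in 10.6% and 14.0% of windows, the forkhead letters TGTTTAC or GTAAACA in 2.13% and 3.17%, the SOX letters AACAATG or CATTGTT in 2.13% and 3.29%, and the T-box letters AGGTGTGA or TCACACCT in 0 of 47 windows and 1.12%. Of the genes that passed, *Sox6* held the RUNX and the SOX letters, and none held the forkhead or T-box letters. A match is a stretch of letters and not a shown binding site. Printed 5′ to 3′ on the strand of the gene are 4 windows that hold the TEAD letters, those of *Runx1*, *Sox6* and *Foxp1*. These letters are in capitals. The distal *Runx1* window, which does not hold them, is printed as well. The counts do not separate the start sites of a gene.
Runx1, proximal start, chr16:92697330-92697579, minus strand, GGAATG beginning 55 bases before the start: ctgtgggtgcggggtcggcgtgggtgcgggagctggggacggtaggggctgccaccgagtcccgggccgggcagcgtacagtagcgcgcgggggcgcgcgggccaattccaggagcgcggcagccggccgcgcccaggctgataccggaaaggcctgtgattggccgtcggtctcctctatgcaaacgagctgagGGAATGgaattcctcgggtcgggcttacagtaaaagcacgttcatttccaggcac
Runx1, distal start, chr16:92826075-92826324, minus strand: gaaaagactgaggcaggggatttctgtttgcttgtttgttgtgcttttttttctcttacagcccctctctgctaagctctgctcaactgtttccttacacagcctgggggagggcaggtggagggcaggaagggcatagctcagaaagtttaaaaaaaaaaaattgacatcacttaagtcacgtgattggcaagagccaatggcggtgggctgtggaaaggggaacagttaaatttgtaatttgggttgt
Sox6, chr7:116038745-116038994, minus strand, GGAATG beginning 107 bases before the start: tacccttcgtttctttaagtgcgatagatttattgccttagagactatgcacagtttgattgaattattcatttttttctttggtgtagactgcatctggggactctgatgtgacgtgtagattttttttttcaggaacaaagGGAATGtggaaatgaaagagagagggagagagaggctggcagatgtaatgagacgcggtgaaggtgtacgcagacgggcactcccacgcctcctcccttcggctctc
Sox6, chr7:115846141-115846390, minus strand, CATTCC beginning 132 bases before the start: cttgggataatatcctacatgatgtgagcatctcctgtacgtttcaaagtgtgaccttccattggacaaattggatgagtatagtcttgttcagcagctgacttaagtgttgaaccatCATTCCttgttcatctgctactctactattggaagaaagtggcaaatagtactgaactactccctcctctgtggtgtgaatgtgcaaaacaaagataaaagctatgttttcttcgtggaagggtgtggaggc
Foxp1, chr6:99520994-99521243, minus strand, CATTCC beginning 134 bases before the start: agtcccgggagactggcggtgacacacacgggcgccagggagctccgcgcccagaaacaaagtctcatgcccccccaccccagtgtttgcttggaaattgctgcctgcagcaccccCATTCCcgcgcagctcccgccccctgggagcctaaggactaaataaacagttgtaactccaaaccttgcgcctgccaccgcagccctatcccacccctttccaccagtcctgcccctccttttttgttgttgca

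The symbols under the count minimum were near silent. Of these 36, 18 had 0 counts in all 6 libraries, and the highest count of the rest in any library was 18, for *Tbx4*, which had 18, 10 and 6 counts in L1L2-FF and 8, 5 and 8 in the AKO-labelled libraries. *Foxa1*, a factor of epithelial cells, was counted 13 times in L1L2-FF replicate 3, 2 times in L1L2-AKO replicate 3 and 0 times in the other 4 libraries. *Sox15* was counted 1, 4 and 0 times against 11, 4 and 6. *Snai3*, the third member of the SNAI family, was counted at most 8 times. These genes were not tested.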

How the data were processed

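Adipocytes of 6 pools of 4 male mice at postnatal day 7 were sequenced, 3 pools per genotype, and libraries were assigned by the submitters' labels. The authors sequenced paired ends on a BGISEQ-500, aligned them to mm10 with HISAT2 (2.1.0) and used StringTie (1.3.5). The deposited table gives counts for each gene symbol, not normalized. The annotation, the counting program and its strand setting are not given in the sources used here. Counting error sets the limit for genes with few counts.

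Counts were filtered with edgeR's filterByExpr (minimum count 10, minimum total count 15), which kept 15674 of 37384 genes and all 53 members, scaled by TMM and tested by quasi-likelihood in edgeR (two-sided), adjusting p-values over all tested genes after Benjamini and Hochberg (R 4.3.3, edgeR 4.0.16, limma 3.58.1, DESeq2 1.42.0). The standard error is the absolute log2 fold change over the square root of F. Exon lengths, positions and overlapping genes came from GENCODE M21 (mm10). Members and lists were chosen with earlier results of these data known. Members past the threshold are all named, with values per library, as are the most abundant member of each family by RPKM and at most 4 called genes of each list. Values of further members and list genes were added after they were seen. Replicates of a genotype differed by more than sampling noise. The test was checked on simulated counts. A gene of the Schwann cell list is not reported here.

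Alternatives were DESeq2 size factors, upper-quartile or library-size scaling, DESeq2's Wald test, limma-voom, no count filter, at least 10 counts in every library, replicate number as a block, and each library left out in turn.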

Additional observations from a re-analysis of the deposited data

How the results depend on the processing

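The number of members past an adjusted p of 0.05 in edgeR's test was 7. DESeq2's Wald test gave 12, 4 higher and 8 lower, with *Foxc1*, *Foxd3*, *Foxo6*, *Foxp4* and *Sox5* added. The cause was not tested. Leaving out single libraries moved the number to between 4 and 10, and it was 4 without L1L2-FF replicate 1, L1L2-AKO replicate 2 or L1L2-AKO replicate 3. The number over all genes was 2580, between 1281 and 2845 with each library left out, and 1290, 1281 and 1374 without those same libraries, with 1 library fewer in each fit. *Runx1*, *Sox6* and *Tbx21* passed under all 14 alternatives, and no member changed its direction while past the threshold. *Foxp1* was lost with upper-quartile scaling, library size alone, limma-voom and the block. At least 10 counts in every library left 43 members to test, without *Sox2*. The fall of *Lats1* passed under all 14 alternatives. *Lats2* lay between 0.55 and 0.78 without a library, and missed the threshold in 4 of these 6 fits.

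Same-numbered libraries are not said to share a litter or day. Their deviations from the genotype means correlated by 0.188, 0.255 and -0.0544, beside -0.324 to 0.211 for libraries of unlike number. With 3 libraries per genotype these values cannot decide on pairing. As no pairs are named, the main fit took none, and replicate number was used as a block in an alternative. With replicate number as a block, 5 members and 2514 genes passed, 19 list genes against 16, and *Lats1* and *Lats2* had log2 fold changes of -1.04 and 0.63. *Irx2* and *Foxp1* lost their call under the block.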
